A study of Mus musculus with 6 samples.

Results

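Receptors on the islet cell surface let hormones, nerves and nutrients adjust insulin release, and 10 genes for such receptors were followed among the 34745 genes of the table. They were chosen by name, with earlier results of these data known. The 9 G protein-coupled receptors are Glp1r, Gipr, Gcgr, Ffar1, Gpr119, Adra2a, Sstr3, Chrm3 and Galr1, and Prlr, the prolactin receptor, is a cytokine receptor set beside them for contrast. RNA of isolated islets was sequenced in 6 libraries of C57BL/6 mice aged 8 weeks, with 2 libraries in each of 3 groups. WT is wild type, KO is βRapKO, and KO+DNMT3A is βRapKO with Dnmt3a brought in by lentivirus. The name βRapKO is read as a loss of Raptor, a subunit of mTOR complex 1 encoded by Rptor, in beta cells; the Cre driver and the deleted exons are not given in the sources used here. The word GFP stands in the columns for WT and for KO without an explanation in the labels, so whether these islets also received a virus is not known here. Nothing says whether replicates came from separate mice, so the spread between them may be technical.

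G protein-coupled receptors signal through the G protein they engage. Receptors coupled to Gs raise cyclic AMP and those coupled to Gq act through phospholipase C and calcium, and both strengthen insulin release when glucose is high. Receptors coupled to Gi lower cyclic AMP and restrain release. Prlr instead activates the kinase JAK2 and the transcription factor STAT5, a pathway known for the growth of beta cells in pregnancy.

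Gene-level values did not settle the group labels. Rptor was at 0.8 and 1.06 FPKM (fragments per kilobase of transcript, scaled to the size of the library) in the WT libraries, 0.38 and 1.51 in those labelled KO, and 0.71 and 1.93 in those labelled KO+DNMT3A. The library labelled KO replicate 2 was thus above both WT libraries. A gene-level value includes exons outside a deletion and cells other than beta cells, so it is no check of the deletion. Dnmt3a was at 2.94 and 4.43 FPKM in WT, 3.19 and 2.5 in KO and 3.62 and 3.8 in KO+DNMT3A. Both KO+DNMT3A libraries were above both KO libraries, as for 17.2% of all tested genes, and the WT range overlapped those of both other groups.

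Insulin-rich and insulin-poor libraries were present, and this split cut across the groups. Ins1 and Ins2 together held 16.5% to 30.5% of all FPKM in 4 libraries, but 0.17% in WT replicate 1 and 0.11% in KO replicate 2. Summed FPKM of 10 beta cell markers was 1583 in WT replicate 1 and 1684 in KO replicate 2, against 124621 to 218236 in the other 4, with Mafa at 0 in both and Slc2a2 at 0 in WT replicate 1. The 8 alpha cell markers summed to 1436 to 2618 FPKM in all 6 libraries. Mitochondrially encoded genes held 44.8% and 50.9% of FPKM in the insulin-poor libraries and 16.5% to 26.5% in the others. WT replicate 1 was also the shallowest, with 244636 fragments inferred to lie in genes, against 780504 in KO replicate 2 and up to 1920991 elsewhere. Its 9 duct cell markers summed to 2833 FPKM, against 325 to 1608 in the others, and its 9 stellate cell and fibroblast markers to 1119, against 185 to 422. Macrophage markers summed to 510 and 541 FPKM in WT, 327 and 517 in KO, and 160.0 and 238 in KO+DNMT3A. Delta cell markers summed to 466 and 2595 FPKM in WT, 4923 and 2801 in KO, and 4116 and 10940.2 in KO+DNMT3A. Those of PP and epsilon cells summed to 1689.5 and 8066 FPKM, 21561 and 11117, and 11494 and 18640.0 in the same order, so both lists were above WT in all 4 other libraries. Sst and Ppy made up most of these sums. The delta cell marker Ghsr was at 0 in all libraries but KO+DNMT3A replicate 2, and Ghrl was at 0 in WT replicate 1. Acinar cell markers stayed between 0.0 and 10.5 FPKM in sum. The part of cell makeup, depth and mitochondrial RNA in the receptor results below was not tested. In such bulk RNA, fewer cells of a type and less receptor RNA per cell cannot be told apart.

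The start regions of the receptor genes differed in how many CG pairs they hold, the sites that DNA methyltransferases such as DNMT3A act on. The sequences just before 3 starts are shown because Glp1r and Prlr had the widest gaps between libraries, while Gcgr had the most CG pairs among the members. They are from RefSeq on GRCm38.p6, plus strand, 5′ to 3′, with each CG in capitals, and lie upstream of the first annotated transcript start of each gene.
Gcgr, chr11:120530477-120530698: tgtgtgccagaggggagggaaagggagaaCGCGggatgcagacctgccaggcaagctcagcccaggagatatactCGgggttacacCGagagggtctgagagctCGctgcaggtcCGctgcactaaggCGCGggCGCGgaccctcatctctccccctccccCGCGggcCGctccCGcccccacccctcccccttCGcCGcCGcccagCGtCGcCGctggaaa
Glp1r, chr17:30901617-30901816: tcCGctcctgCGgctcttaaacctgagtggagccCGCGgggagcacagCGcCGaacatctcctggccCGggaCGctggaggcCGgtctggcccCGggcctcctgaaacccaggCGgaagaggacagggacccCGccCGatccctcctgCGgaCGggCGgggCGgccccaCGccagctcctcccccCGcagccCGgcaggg
Prlr, chr15:10176988-10177237: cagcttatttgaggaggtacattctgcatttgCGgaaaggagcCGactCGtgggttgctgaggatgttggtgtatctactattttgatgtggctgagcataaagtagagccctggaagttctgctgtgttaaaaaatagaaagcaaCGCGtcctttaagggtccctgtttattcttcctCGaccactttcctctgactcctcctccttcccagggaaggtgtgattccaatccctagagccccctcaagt

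These stretches hold 20 CG pairs in 222 bases for Gcgr, 20 in 200 for Glp1r and 6 in 250 for Prlr. Over the full 300-base windows, which reach from 250 bases before to 50 after a start, Gcgr had 34 CG pairs, Glp1r 29 and Adra2a 28, and 7.73%, 12.9% and 14.2% of 32851 mouse promoter windows had as many. The median window held 7. Chrm3 had 11 and Ffar1 9. Gpr119 had 4, and its window carried 3 copies of TAAT, counted on both strands, a core letter group of homeobox factor sites. Sstr3 has 2 RefSeq starts with 10 and 1 CG pairs, and Prlr has 3 with 8, 2 and 4. TAAT was also found at 1 Prlr start, 6 times, and at no other member; 58.0% of all windows hold it. CANNTG, the letters of an E-box, was in windows of the 8 matched members except Gcgr and Gpr119, and in 72.3% of all windows. TGACGTCA, the full cyclic AMP response element, was in none of theirs and in 1.79% of all. Gipr and Galr1 were not matched in the table. A letter match is not a binding site, and methylation was not measured in these files.

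Glp1r (ENSMUSG00000024027, chr17:30901817-30940791, plus strand, GRCm38) encodes the receptor for the incretin glucagon-like peptide 1, which raises cyclic AMP in beta cells after a meal. Its level was 20.8 FPKM in WT replicate 2, 15.6 in KO replicate 1, 29.6 in KO+DNMT3A replicate 1 and 7.26 in KO+DNMT3A replicate 2, and WT replicate 1 and KO replicate 2 were listed at 0. Both insulin-poor libraries thus list it at 0, and the groups overlap in all 3 comparisons. A listed 0 is not by itself evidence of absence: of 907 genes with at least 20 FPKM in each of the 4 other libraries, 29 were listed at 0 in WT replicate 1 and 3 in KO replicate 2. Glp1r had 7.26 FPKM or more in those 4 libraries, and of 2775 genes with at least 7 FPKM there, 182 were listed at 0 in WT replicate 1 and 46 in KO replicate 2.

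Gipr (chr7:19156061-19166127, minus strand) encodes the receptor of the other incretin, glucose-dependent insulinotropic polypeptide, and also couples to Gs. Its level was 10.25 and 25.4 FPKM in WT, 9.97 and 6.64 in KO, and 10.1 and 22.3 in KO+DNMT3A. Unlike Glp1r, it was present in both insulin-poor libraries, and WT replicate 1 was above KO replicate 1. It was the only member whose 2 KO libraries lay below both WT libraries. The nearest values, 10.25 FPKM in WT replicate 1 and 9.97 in KO replicate 1, were close. At the length of its coding transcript, the first of these rests on about 7 fragments.

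Gcgr (chr11:120530699-120538986, plus strand) encodes the glucagon receptor, through which alpha cell glucagon raises cyclic AMP in beta cells. It stood at 1.59 and 22.4 FPKM in WT, 12.02 and 11.7 in KO, and 13.6 and 30.5 in KO+DNMT3A. The 2 KO libraries were nearly equal although they differ widely in insulin RNA, whereas WT replicate 1 was far below every other library. At the length of its coding transcript, the 1.59 FPKM of WT replicate 1 is worth less than 1 fragment, so this value rests on almost no reads.

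Gpr119 (chrX:48667979-48674478, minus strand) encodes a Gs-coupled receptor for lipid amides. Its values were 3.60 and 0.905 FPKM in WT, 5.87 and a listed 0 in KO, and 3.21 and 1.97 in KO+DNMT3A. Its single annotated transcript makes these about 2, 2, 19, 0, 14 and 5 fragments in the same order. With counts this small, no order of its levels can be read.

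Ffar1 (chr7:30857390-30861564, minus strand) encodes a receptor for long-chain fatty acids that couples mainly to Gq. It reached 5.87 and 42.6 FPKM in WT, 43.5 and 11.4 in KO, and 38.2 and 59.8 in KO+DNMT3A, or about 6, 173, 259, 37, 306 and 279 fragments. The 2 insulin-poor libraries were the lowest, and the other 4 lay within 38.2 to 59.8 FPKM. Ffar1 had the highest mean level of the 10 genes, 33.5 FPKM over the 6 libraries.

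Chrm3 (chr13:9875486-10360847, minus strand) encodes the Gq-coupled muscarinic receptor through which acetylcholine from nerves acts on beta cells. It was at 3.11 and 2.81 FPKM in WT, 1.71 and 3.12 in KO, and 1.66 and 3.54 in KO+DNMT3A. Its range was the narrowest of the members, and the insulin-poor libraries were among its higher values. At the length of its longest coding transcript, however, WT replicate 1 rests on about 3 fragments, and the others on about 11 to 17.

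Adra2a (chr19:54044151-54048982, plus strand) encodes the Gi-coupled receptor through which adrenaline and noradrenaline block insulin release. It was at 1.08 and 11.9 FPKM in WT, 9.59 and 5.06 in KO, and 7.12 and 18.6 in KO+DNMT3A. The 2 insulin-poor libraries were again the lowest, and KO+DNMT3A replicate 2 was the highest.

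Sstr3 (chr15:78537008-78544685, minus strand) encodes a Gi-coupled somatostatin receptor known from the primary cilium of beta cells. Its level was 4.16 and 14.4 FPKM in WT, 19.1 and 17.3 in KO, and 15.6 and 28.5 in KO+DNMT3A. All 4 libraries labelled KO or KO+DNMT3A were above both WT libraries, as they were for the summed delta cell and PP and epsilon cell markers, and the insulin-poor KO replicate 2 was close to its partner.

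Galr1, on chromosome 18, encodes a Gi-coupled receptor for galanin, a neuropeptide that restrains insulin release. It was listed at 0 and at 10.4 FPKM in WT, at 13.9 and 2.23 in KO, and at 12.3 and 8.41 in KO+DNMT3A. The insulin-poor libraries were the lowest, and the other 4 spanned 8.41 to 13.9 FPKM.

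Prlr (chr15:10177238-10349180, plus strand) had 0.361 and 22.3 FPKM in WT, 23.3 and 1.70 in KO, and 17.9 and 20.49 in KO+DNMT3A. The 4 insulin-rich libraries of all 3 groups fell within 17.9 to 23.3 FPKM, while both insulin-poor ones were at 1.70 or less. Its exons overlap those of Gm21973, and whether counting used the strand is not given in the sources used here, so the reads of both cannot be told apart.

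**Figure D1:**
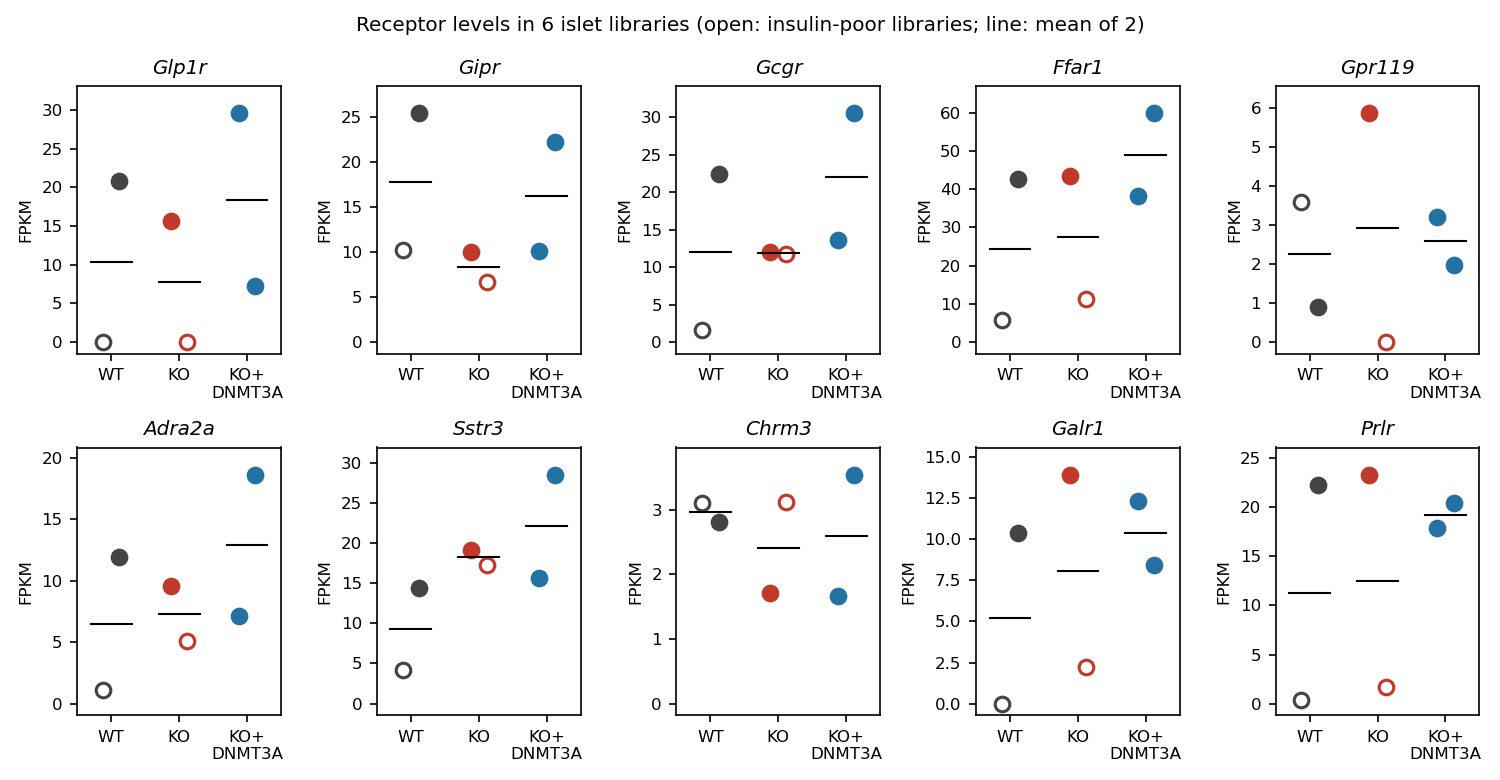
FPKM of each receptor (vertical axis, its own scale from 0 in each panel) in the 6 libraries by group, with the mean of the 2 libraries as a line. The open circles, WT replicate 1 and KO replicate 2, are the insulin-poor libraries and are the 2 lowest in Glp1r, Gcgr, Ffar1, Adra2a, Galr1 and Prlr, though by little for KO replicate 2 in Gcgr, and not in the other 4.

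Within the WT group and within the KO group, the receptors differed in how far the insulin-rich library stood above the insulin-poor one. On the scale of log2(FPKM + 1), the WT replicates differed by 4.45 for Glp1r and 4.09 for Prlr, and the KO replicates by 4.06 and 3.17. Galr1 differed by 3.51 and 2.21 and Ffar1 by 2.66 and 1.85. For Gcgr the difference was 3.17 in WT but 0.03 in KO, and for Sstr3 it was 1.58 and 0.14. These gaps lay below those of the insulin gene Ins1, 7.28 and 8.16, and of the beta cell peptide gene Iapp, 6.03 and 6.02. On this scale a gap cannot exceed the level in the higher library, so the receptors could not reach those values. Glp1r, listed at 0 in both insulin-poor libraries, had the largest gaps its levels allow. The sizes therefore do not rank relative loss between the receptors and the hormone genes. The glucagon gene Gcg differed by -0.06 and -0.6, and the median of all tested genes by 0.38 and 0.21. These values describe single pairs of libraries and carry no test.

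In 6 of the 10 members the 2 insulin-poor libraries were the lowest of the 6, as they were for 3293 of 13233 tested genes, or 24.9%. The 6 are Glp1r, Gcgr, Ffar1, Adra2a, Galr1 and Prlr. Since the members were chosen with earlier results of these data known, the count beside the share of all genes is a description only. Rescaling each library to its FPKM outside mitochondrially encoded and insulin genes gave 7 of 10 members and 29.7% of genes, with Gipr joining the 6. After that rescaling the KO replicates still differed by 4.10 for Glp1r and 3.28 for Prlr, and by 0.27 for Sstr3 and 0.17 for Gcgr, all as log2 differences.

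**Figure D2:**
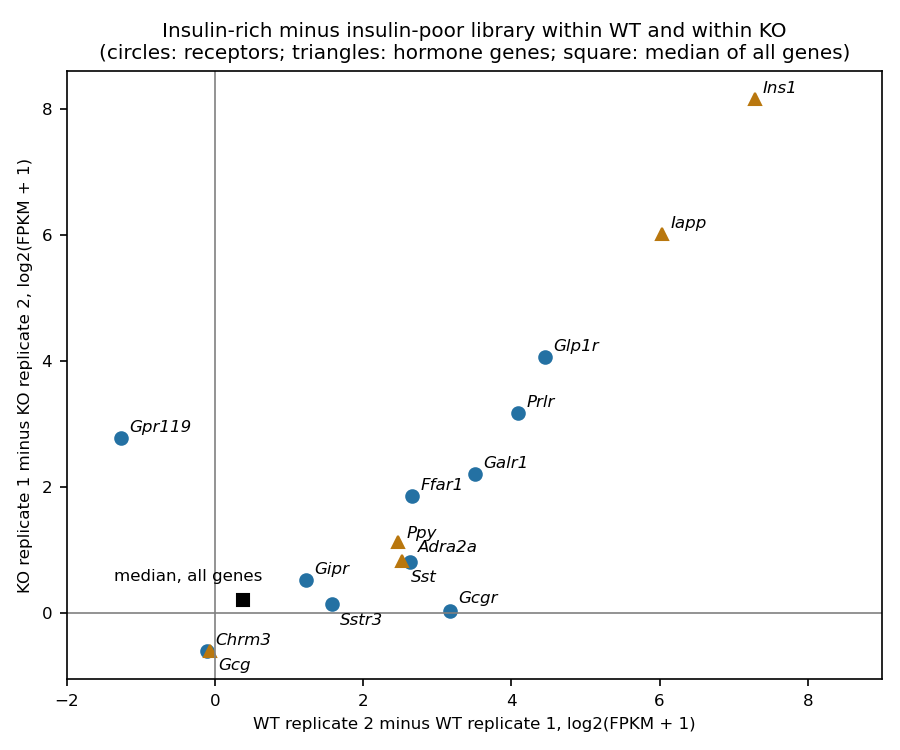
Difference of log2(FPKM + 1) between the insulin-rich and the insulin-poor library within WT (horizontal axis) and within KO (vertical axis), for the 10 receptors (circles), 5 hormone genes (triangles) and the median of all tested genes (square). Glp1r and Prlr lie nearest to Iapp and Ins1, while Gcgr and Sstr3 are near 0 on the vertical axis and Chrm3 lies beside Gcg.

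By mean FPKM over the 6 libraries, the order of levels was Ffar1 at 33.5, Sstr3 at 16.5, Gcgr at 15.3, Prlr at 14.3, Gipr at 14.1, Glp1r at 12.2, Adra2a at 8.89, Galr1 at 7.88, Chrm3 at 2.66 and Gpr119 at 2.59. FPKM is per length of transcript, which lets genes be set side by side. None of the 9 pairs of neighbours passed a two-sided exact permutation test of the sign of the paired log2 differences. Unadjusted p ran from 0.094 to 0.719 and adjusted p from 0.609 to 0.719, where 0.031 is the smallest p that 6 libraries allow. A single pair at that value could not pass after adjustment over 9 pairs, so the test cannot settle the order. It also takes libraries of all groups together, and the neighbours were set by the same values. On the log2 scale the steps Prlr over Gipr, at -0.49, and Glp1r over Adra2a, at -0.26, ran the other way. The step with the smallest p was Ffar1 over Sstr3, higher in 5 of 6 libraries, with a mean difference of 0.8 ± 0.76 (SD, n = 6) on the log2 scale. Ffar1 was lower than Sstr3 in KO replicate 2, at 11.4 against 17.3 FPKM.

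The first comparison, KO against WT, asks how receptor RNA differs in islets whose beta cells lack Raptor. Of the 10 receptors, 6 had a higher mean log2 level in the libraries labelled KO, as did 52.4% of all tested genes, and 4 a lower one, and none passed the test. The largest positive difference was that of Sstr3, 1.11 on the log2(FPKM + 1) scale (SE 0.68, n = 2 a group), and the largest negative that of Gipr, -0.91 (SE 0.67). By limma, with Benjamini-Hochberg adjustment over all 13233 tested genes, both had an adjusted p of 1.0, with unadjusted p of 0.146 for Sstr3 and 0.211 for Gipr. No gene of the table passed, so the share called at an adjusted p under 0.05 was 0.0%, and 1.81% of genes, but no member, had an unadjusted p under 0.05.

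Sstr3 was the only member with both KO libraries above both WT libraries, where 9.36% of all genes were so, and Gipr the only one with both below, where 10.5% were. These shares are near those of the members. Galr1 differed by 1.04 (SE 1.17), Gcgr by 0.73 (SE 0.99), Adra2a by 0.63 (SE 0.91), Prlr by 0.53 (SE 1.41) and Ffar1 by 0.44 (SE 0.99). Gpr119, Glp1r and Chrm3 had -0.18, -0.20 and -0.25, with SE of 0.93, 1.68 and 0.55. The median over members was 0.48, against 0.027 over all genes. Without WT replicate 1 the differences of Gcgr, Ffar1, Adra2a, Galr1 and Prlr turned negative, at -0.86, -0.89, -0.69, -0.71 and -1.52, and that of Gpr119 turned positive, at 0.46.

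With both insulin-poor libraries left out, an alternative that leaves 1 WT and 1 KO library, Sstr3 and Gipr kept their directions. So did Glp1r, Ffar1, Chrm3, Galr1 and Prlr. In the libraries that remain, Sstr3 was 14.4 FPKM in WT and 19.1 in KO, and Gipr 25.4 and 9.97. The directions of Gcgr, Adra2a and Gpr119 turned, to -0.85, -0.28 and 1.85. No adjusted p was under 0.05 there either.

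The second comparison, KO+DNMT3A against KO, asks how receptor RNA differs once Dnmt3a has been added to βRapKO islets. All 10 receptors had a positive mean log2 difference, as did 68.2% of all genes, and none passed the test. Glp1r had the largest, 1.96 (SE 1.68), then Prlr with 1.32 (SE 1.41) and Ffar1 with 1.06 (SE 0.99). Next came Gipr at 0.81 (SE 0.67), Gcgr at 0.74 (SE 0.99), Galr1 at 0.69 (SE 1.17), Adra2a at 0.66 (SE 0.91) and Gpr119 at 0.43 (SE 0.93). Sstr3 and Chrm3 were lowest, at 0.21 (SE 0.68) and 0.06 (SE 0.55). The adjusted p by limma was 1.0 for each, the smallest unadjusted p was 0.261, for Gipr, and 0.0% of all genes were called at an adjusted and 1.11% at an unadjusted p under 0.05.

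Gipr and Gcgr were the 2 members whose KO+DNMT3A libraries both lay above both KO libraries, where 17.2% of all genes did. For Gipr the nearest values were 10.1 and 9.97 FPKM, a gap far smaller than that between replicates. No member lay below in both, where 5.43% of genes did. The member median was 0.71 and that of all genes 0.189. When KO replicate 2, the insulin-poor library, was left out, Glp1r, Gpr119, Galr1 and Prlr changed direction, to -0.07, -0.96, -0.41 and -0.27. This comparison and the first share the KO libraries, so a low KO value enters both with opposite signs.

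The third comparison sets KO+DNMT3A against WT. Here 8 members had a positive difference, as did 64.8% of all genes, and none passed. Prlr had 1.84 (SE 1.41), Glp1r 1.77 (SE 1.68), Galr1 1.73 (SE 1.17), Ffar1 1.5 (SE 0.99), Gcgr 1.46 (SE 0.99), Sstr3 1.31 (SE 0.68) and Adra2a 1.29 (SE 0.91). Gpr119 was at 0.26 (SE 0.93), Gipr at -0.10 (SE 0.67) and Chrm3 at -0.19 (SE 0.55). Adjusted p by limma was 0.997 to 0.999, and the smallest unadjusted p was that of Sstr3, 0.0927. Over all genes 0.0% passed at an adjusted and 2.86% at an unadjusted p under 0.05.

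Sstr3 was the only member with both KO+DNMT3A libraries above both WT libraries, as 19.2% of all genes were, and no member lay below in both, as 7.87% did. The member median was 1.39 against 0.228 over all genes. Without WT replicate 1, Glp1r, Gcgr, Adra2a, Galr1 and Prlr had -0.46, -0.13, -0.03, -0.02 and -0.21. Without WT replicate 2 instead, which leaves the insulin-poor library as the only WT sample, 7 members had an unadjusted p under 0.05 in this comparison, where 17.1% of all genes had, and 4 in KO against WT, where 12.9% had. None had an adjusted p under 0.05. The lone WT library is assumed there to vary like the other groups, which supply the spread.

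**Figure D3:**
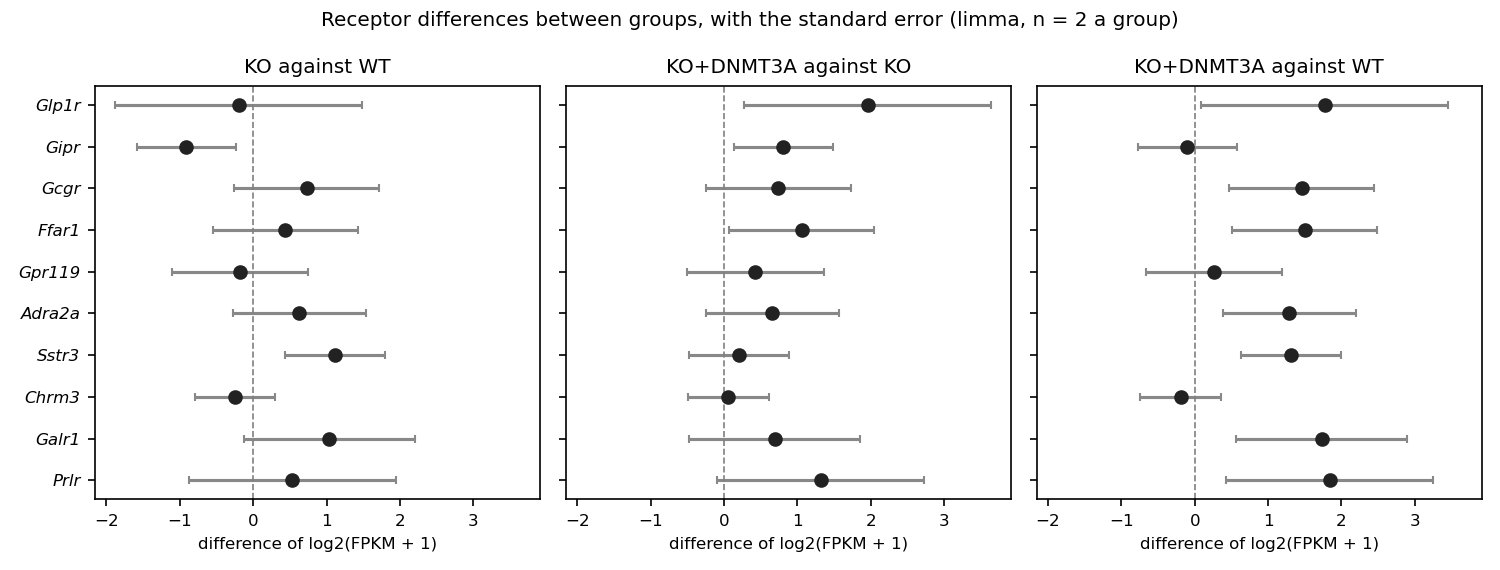
Difference of log2(FPKM + 1) between groups for each receptor, with its standard error as a bar, from limma on all 6 libraries, in the 3 comparisons. In KO against WT the points lie on both sides of 0, from -0.91 for Gipr to 1.11 for Sstr3, and in KO+DNMT3A against KO all 10 lie above 0, with bars up to 1.68 long on each side.

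Grouping the 9 G protein-coupled receptors by main partner showed how the mix differed between libraries. The 4 Gs receptors summed to 15.4 and 69.5 FPKM in WT, 43.5 and 18.4 in KO, and 56.5 and 62.0 in KO+DNMT3A. The 3 Gi receptors summed to 5.24 and 36.6, 42.6 and 24.6, and 35.1 and 55.5 in the same order. Their ratio, Gi to Gs, was 0.34 and 0.53 in WT, 0.98 and 1.34 in KO, and 0.62 and 0.89 in KO+DNMT3A. The groups did not overlap in this ratio: KO was highest, WT lowest and KO+DNMT3A between them, and neither insulin-poor library broke the order. This order was not set against ratios of other gene sums, so how often it would arise is not known here.

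A ratio taken within a library does not depend on its scaling. The ratio of Sstr3 to Gipr, a member of each sum, was chosen after its values were seen. It was 0.41 and 0.57 in WT, 1.92 and 2.6 in KO, and 1.55 and 1.28 in KO+DNMT3A. Both ratios are descriptions of sums over members picked by name and carry no test. In WT replicate 1 both rest on few fragments, about 4 for Sstr3 and 7 for Gipr at the length of their longest coding transcripts. Glp1r and Galr1 are listed at 0 there, and Gcgr is worth less than 1 fragment. The 2 Gq receptors held 25.2% to 35% of the receptor total in all 6 libraries. That total ranged from 29.7 FPKM in WT replicate 1 and 57.4 in KO replicate 2 to between 131.3 and 180.9 in the other 4.

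**Figure D4:**
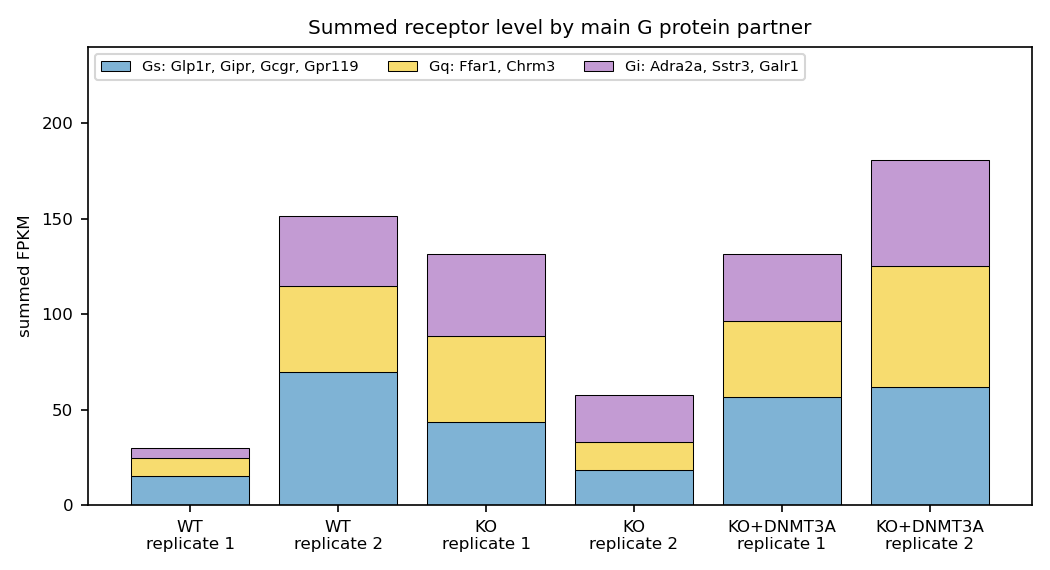
Summed FPKM of the 9 G protein-coupled receptors in each library, stacked by main G protein partner (Gs with 4 genes, Gq with 2, Gi with 3). The total is lowest in WT replicate 1, at 29.7 FPKM, and the Gi part is larger than the Gs part only in KO replicate 2, where their ratio is 1.34.

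Other genes with library profiles most like those of the 3 most abundant members were sought among 3251 genes that had at least 5 FPKM on average and varied between libraries. Likeness was the root mean square difference of log2(FPKM + 1) after each gene was centred on its mean over 6 libraries, so smaller is closer. Nearest to Ffar1 were Ids at 0.159, Ccdc184 at 0.201 and Isg20 at 0.217. Nearest to Sstr3 were Tjap1 at 0.135, Bbs4 at 0.151 and 1600020E01Rik at 0.171. Nearest to Gcgr were Rimbp2 at 0.212, Gm37399 at 0.258 and Mcts2 at 0.27. Ids, for example, was at 2.37 and 17.6 FPKM in WT, 21.5 and 5.94 in KO, and 20.9 and 25.0 in KO+DNMT3A, with the insulin-poor libraries lowest as for Ffar1. Bbs4 was at 1.61 and 4.85, 8.83 and 7.06, and 5.53 and 12.3, with both WT libraries lowest as for Sstr3. Nearness over 6 libraries that differ in makeup and depth is a description of these libraries.

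The machinery around the receptors was described with 9 lists holding 249 different genes, of which 164 had enough RNA to be tested. Counts of list genes that were higher are to be read against all tested genes. Of those, 52.4% were higher in KO than in WT, 68.2% in KO+DNMT3A than in KO and 64.8% in KO+DNMT3A than in WT. None of the 164 list genes passed an adjusted p under 0.05 by limma in any comparison. At an unadjusted p under 0.05 there were 7, 1 and 10 genes in the 3 comparisons, in the order above, to be read against the 1.81%, 1.11% and 2.86% of all genes given above. Every difference named in the next paragraphs is therefore within what the test does not separate from the spread between libraries, and adjusted p was 0.997 to 1.0.

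Among peptide ligands, 11 of 14 tested genes were higher in KO than in WT and 13 of 14 higher in KO+DNMT3A than in WT, with medians of 1.19 and 1.68. Over all tested genes these shares were 52.4% and 64.8%. The list includes the hormone genes Sst, Ppy, Pyy and Ghrl, which are also markers of delta, PP and epsilon cells. The summed markers of these cells were above WT in all 4 other libraries, but they mostly repeat these same genes. Sst was 443 of 466 FPKM of the delta cell sum in WT replicate 1, and Ppy 18361 of 21561 FPKM of the other sum in KO replicate 1. The sums are thus no separate evidence on cell makeup. Npy, for neuropeptide Y, was listed at 0 and at 5.44 FPKM in WT, 32.2 and 13.6 in KO, and 59.8 and 7.90 in KO+DNMT3A, and in KO against WT its log2 difference was 3.12 (SE 1.14, unadjusted p 0.0269). Ghrl, which encodes ghrelin, had 0 and 2.25, 9.53 and 6.18, and 2.05 and 7.06 FPKM (2.27, SE 0.76, unadjusted p 0.0178 in KO against WT). Both were above WT in both KO libraries, the insulin-poor one included. Gal, the ligand of Galr1, had 17.2 and 5.77 FPKM in the WT pair and 99.5 in KO+DNMT3A replicate 1, and the remaining 3 libraries list it at 0, so its 2 KO+DNMT3A libraries stood at opposite ends. Gast and Cck, for gastrin and cholecystokinin, had 9.15 and 19.4 FPKM in KO replicate 1, and neither was above 0 in KO replicate 2 or in WT. In KO+DNMT3A, Gast was at 3.4 and 7.78 FPKM, and Cck at 9.12 and a listed 0. Sst, which encodes the ligand of Sstr3, ranged from 443 FPKM in WT replicate 1 to 10846 in KO+DNMT3A replicate 2. Ppy, for pancreatic polypeptide, ran from 1178 in WT replicate 1 to 18361 in KO replicate 1.

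Among other receptors, 30 of 78 listed genes had enough RNA, and 17 were higher and 13 lower in KO than in WT. Adgrg1, an adhesion receptor and the most abundant of them, was at 8.46 and 20.2 FPKM in WT, 39.2 and 18.9 in KO, and 44.1 and 17.4 in KO+DNMT3A. Gabbr2, a subunit of the GABA-B receptor, was at 1.11 and 7.83, 10.5 and 0.52, and 10.5 and 14.4 FPKM, with the insulin-poor libraries lowest. S1pr1, a receptor for sphingosine 1-phosphate, was at 9.39 and 5.06, 4.37 and 2.94, and 3.59 and 1.18 FPKM, with both WT libraries highest. Casr, the calcium-sensing receptor, was at 6.77 and 3.65 FPKM in KO+DNMT3A and at most 2.64 in the other 4 libraries. Ffar4, a further fatty acid receptor, was listed at 0 in WT replicate 1 and stood highest, at 9.20, in KO replicate 2. Vipr1, for vasoactive intestinal peptide, kept within 3.83 to 9.37 FPKM.

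Of 22 tested G protein subunit genes, 11 were higher and 11 lower in KO than in WT, with a median of 0.01. Gnb1, a beta subunit shared by many receptors, was at 17.5 and 10.3 FPKM in WT, 2.02 and 1.78 in KO, and 2.62 and 1.34 in KO+DNMT3A. All 4 βRapKO libraries were far below both WT libraries, with log2 differences of -2.32 (SE 0.54, unadjusted p 0.00292) for KO and -2.31 (SE 0.54, unadjusted p 0.00295) for KO+DNMT3A. Gna12, an alpha subunit, was listed at 0 and at 1.82 FPKM in WT and at 2.77 to 5.40 in the other 4 libraries. Gng10, a gamma subunit, had 10.1 and 15.6 FPKM in KO and 13.5 in KO+DNMT3A replicate 1, and a listed 0 elsewhere. Gng4 was listed at 0 in WT replicate 1 and was 7.03 FPKM in KO replicate 2, against 39.1 to 76.5 elsewhere. Gnas, which encodes the Gs alpha subunit and was the most abundant of the list, ranged from 47.4 to 146.8 FPKM with KO replicate 2 at 124.6, and Gnai2, a Gi alpha subunit, ranged from 24.8 to 74.4.

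For cyclic AMP synthesis, breakdown and effectors, 16 of 28 genes were higher in KO than in WT, and 18 of 28 were higher in KO+DNMT3A than in both other groups, where 51.7% of all tested genes were. Prkaca, the catalytic subunit of protein kinase A, was listed at 0 and at 12.1 FPKM in WT, 18.0 and 7.26 in KO, and 18.2 and 18.3 in KO+DNMT3A. Prkar2a, a regulatory subunit, was at 1.64 and 4.11, 5.25 and 7.70, and 5.63 and 5.38 FPKM, with both WT libraries lowest. Pde1c, a phosphodiesterase, was listed at 0 and at 1.09 FPKM in WT and was 3.04 and 4.49 in KO+DNMT3A (1.70, SE 0.63, unadjusted p 0.0276). Adcy6, an adenylyl cyclase, stayed between 8.04 and 16.7 FPKM. Of 10 CREB target genes, which answer to cyclic AMP, 7 were higher in KO than in WT, where 52.4% of all tested genes were. All 10 were higher in KO+DNMT3A than in KO, where 68.2% of all tested genes were. Fos was at 5.39 and 2.71 FPKM in WT, 2.40 and 7.10 in KO, and 14.8 and 11.8 in KO+DNMT3A, and both of the last were above all others. Junb ranged from 24.4 FPKM in KO replicate 2 to 93.0 in KO replicate 1, and Irs2, the insulin receptor substrate, from 15.3 to 53.6.

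In the Gq arm of phospholipase C, IP3 and protein kinase C, 10 of 18 genes were higher in KO than in WT and 15 of 18 higher in KO+DNMT3A than in KO. Over all tested genes these shares were 52.4% and 68.2%. Dgka, a diacylglycerol kinase, was at 1.46 and 0.73 FPKM in WT, 2.5 and 4.11 in KO, and 6.31 and 4.46 in KO+DNMT3A, in which WT was lowest and KO+DNMT3A highest. Plcb3, a phospholipase C acting below Gq, was listed at 0 and at 2.93 in WT, and was 1.17 and 6.10 in KO and 6.20 and 6.82 in KO+DNMT3A. Prkca kept between 5.03 and 13.5 FPKM.

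Among receptor kinases, arrestins and RGS proteins, which shut signals off, 8 of 20 were higher and 12 lower in KO than in WT, with a median of -0.20. Grk5, a receptor kinase, was at 5.16 and 4.87 FPKM in WT, 2.44 and a listed 0 in KO, and 2.14 and 2.83 in KO+DNMT3A (-1.70, SE 0.67, unadjusted p 0.0368 in KO against WT). Arrb2, for beta-arrestin 2, was at 12.4 and 12.6 FPKM in WT, 4.64 and 6.78 in KO, and 4.13 and 9.98 in KO+DNMT3A, lower in all 4 βRapKO libraries than in WT. Rgs17 was at 6.88 and 9.59 FPKM in KO+DNMT3A and 1.20 to 4.08 in the other 4. Rgs4 had 1.99 FPKM in KO replicate 2, 7.03 in WT replicate 1 and 18.3 to 70.5 elsewhere. Rgs5, known from pericytes, reached 56.0 FPKM in KO replicate 1, against 8.67 to 26.6 in the others.

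Of 11 accessory and folding proteins, 6 were higher in KO than in WT and 8 higher in KO+DNMT3A than in KO, where 52.4% and 68.2% of all tested genes were. Ric8b, a chaperone of Gs alpha subunits, was listed at 0 and at 5.71 FPKM in WT, 14.5 and 6.73 in KO, and 16.1 and 9.95 in KO+DNMT3A, and its KO+DNMT3A against WT difference was 2.40 (SE 0.91, unadjusted p 0.0301). Reep5, which shapes the endoplasmic reticulum, ranged from 14.2 FPKM in KO replicate 2 to 66.2 in KO+DNMT3A replicate 1.

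Prlr's own pathway gave 9 of 12 genes higher in KO than in WT, and the KO+DNMT3A mean was above that of both other groups in 9 of 12. Over all tested genes these shares were 52.4% and 51.7%. Cish, which encodes an inhibitor induced by STAT5, was at 0.75 and 1.14 FPKM in WT, 2.59 and 1.42 in KO, and 4.27 and 4.37 in KO+DNMT3A (1.46, SE 0.52, unadjusted p 0.0236 against WT). Socs3, a further inhibitor, was at 6.21 and 8.12, 16.2 and 4.68, and 21.1 and 20.1 FPKM, highest in both KO+DNMT3A libraries. Socs2 was within 2.85 to 4.2 FPKM in all 6. Jak2, the kinase bound to Prlr, was at 3.25 and 1.63 FPKM in WT and 3.90 to 5.86 in the other 4, and Stat3 within 9.35 to 18.5. Ccnd2, a cyclin of beta cell growth, was lowest in WT replicate 1, at 27.5, and in KO replicate 2, at 47.8, and 65.1 to 106.5 elsewhere. In the insulin-poor KO replicate 2, Cish at 1.42 FPKM was above both WT libraries. Prlr there, at 1.70, was above the insulin-poor WT replicate 1, at 0.361, and far below WT replicate 2.

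**Figure D5:**
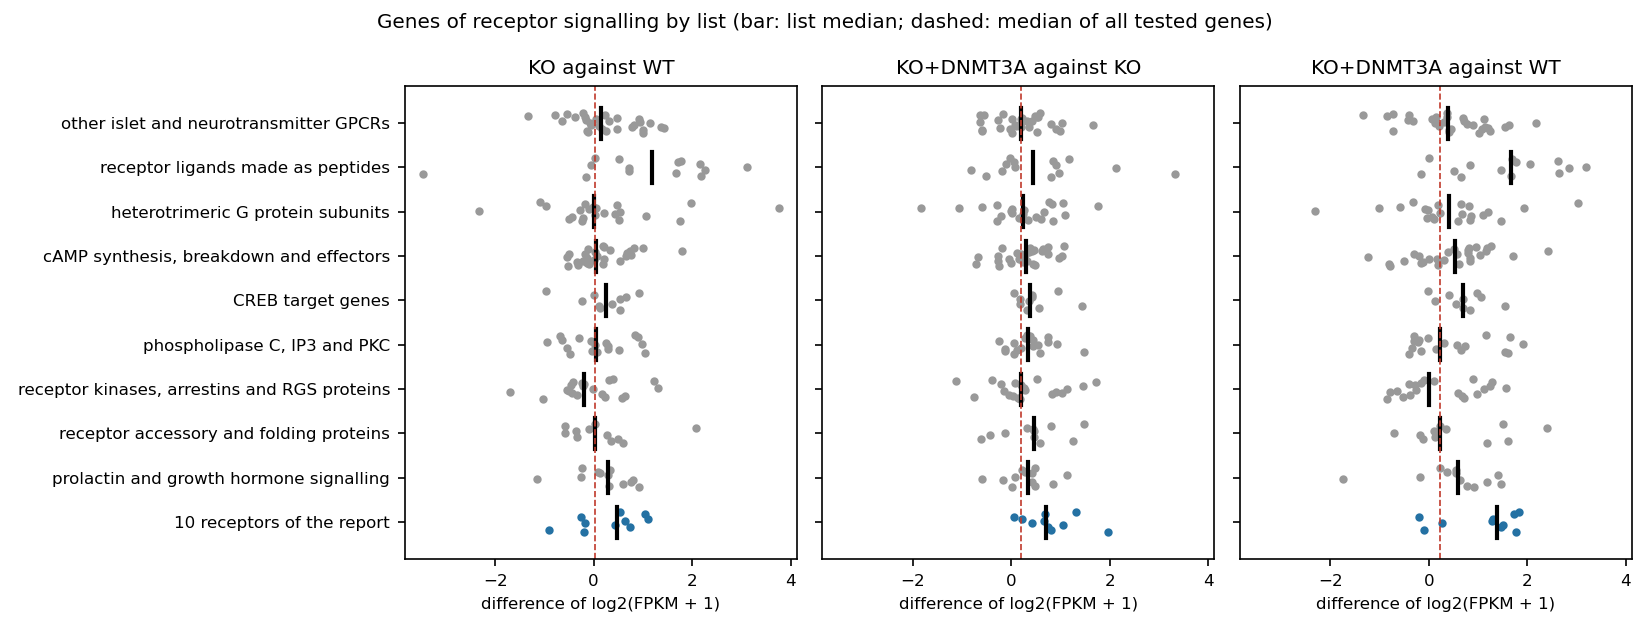
Difference of log2(FPKM + 1) for each tested gene of the 9 signalling lists and for the 10 receptors (dots), with the median of each list as a bar and the median of all tested genes as a dashed line, in the 3 comparisons. The ligand list has the largest medians against WT, 1.19 and 1.68, the kinase, arrestin and RGS list has -0.20 in KO against WT, and the 10 receptors have 0.48, 0.71 and 1.39.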

How the data were processed

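The deposited table gives FPKM per gene for 6 islet libraries, per the file headers, and no counts were at hand. Libraries were poly-A selected with a TruSeq kit, per the labels' protocols. Per the submitters' processing notes, HISAT2 2.0.4, StringTie 1.3.0, edgeR and mm10 were used, in roles not given there. Identifiers were matched to GENCODE M21 (GRCm38) for symbols and positions. Depth was inferred from genes with a single transcript, whose FPKM should be whole multiples of 1 fragment: 84.5% to 91.5% of values up to 20 fragments were whole within 0.01. A filter of 1 FPKM or more in 2 or more libraries kept 13233 genes, among them all 10 members. Their log2(FPKM + 1) entered a limma 3.58.1 fit (R 4.3.3; trended, robust) of all 6 libraries, two-sided, with Benjamini-Hochberg adjustment over all genes at 0.05. A fold on that scale understates the change of low genes. The script was tested on simulated data.

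The members and lists were chosen with earlier results of these data known. Named beside the members were, per list, the 3 genes highest in mean FPKM and up to 2 in each direction with the smallest unadjusted p in each comparison; of these the text gives a part. Lists are described by counts and medians. Alternatives changed the pseudocount, filter, scaling, variance model, replicate block and the libraries used.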

Additional observations from a re-analysis of the deposited data

How the results depend on the processing

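No member and no list gene passed an adjusted p under 0.05 under any of 17 alternatives (102 counts, all 0), and the smallest adjusted p of a member was 0.143. Of 474 member differences under alternatives, 431 kept their direction and 43 did not. Part of the 431 could not turn. A difference of group means does not depend on the filter, the variance model, the replicate block or libraries outside the groups compared. With 2 libraries a group and the 2 insulin-poor libraries in different groups, 1 library can turn a sign, and the shallow WT replicate 1 gives values of few fragments. The cause of the changes was not tested beyond the libraries left out.

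Chrm3 in KO+DNMT3A against KO was 0.06 and became -0.18 with quantile normalization and -0.14 with median scaling. Without both insulin-poor libraries, the log2 differences that changed direction were, in KO against WT, -0.85 for Gcgr, 1.85 for Gpr119 and -0.28 for Adra2a. In KO+DNMT3A against KO they were -0.07 for Glp1r, -0.96 for Gpr119, -0.41 for Galr1 and -0.27 for Prlr. In KO+DNMT3A against WT they were -0.46 for Glp1r, -0.13 for Gcgr, -0.03 for Adra2a, -0.02 for Galr1 and -0.21 for Prlr.

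Leaving out each library in turn, the KO against WT difference ran from -0.86 to 2.31 for Gcgr, -0.89 to 1.77 for Ffar1, -1.57 to 1.21 for Gpr119, -0.69 to 1.95 for Adra2a, -0.71 to 2.80 for Galr1, -1.52 to 2.57 for Prlr, -2.42 to 2.03 for Glp1r and -0.55 to 0.06 for Chrm3. For KO+DNMT3A against KO it ran from -0.33 to 0.44 for Chrm3, -0.07 to 3.99 for Glp1r, -0.96 to 1.82 for Gpr119, -0.41 to 1.79 for Galr1, -0.27 to 2.90 for Prlr and -0.20 to 0.62 for Sstr3. For KO+DNMT3A against WT it ran from -0.46 to 3.99 for Glp1r, -0.13 to 3.05 for Gcgr, -0.03 to 2.60 for Adra2a, -0.02 to 3.49 for Galr1, -0.21 to 3.89 for Prlr, -0.72 to 0.52 for Gipr, -0.38 to 0.89 for Gpr119 and -0.57 to 0.20 for Chrm3. Of the 30 member differences, 8 kept their direction under every alternative run: Gipr and Sstr3 in KO against WT, Gipr, Gcgr, Ffar1 and Adra2a in KO+DNMT3A against KO, and Ffar1 and Sstr3 in KO+DNMT3A against WT. In KO+DNMT3A against KO, leaving out 1 library brought Adra2a down to 0.02, Ffar1 to 0.13 and Gcgr to 0.18. Ffar1 fell to 0.16 in KO+DNMT3A against WT. Where groups did not overlap, as for Gipr and Sstr3 in KO against WT, leaving out 1 library could not turn the sign.

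Over 13233 genes, the differences between replicates 1 and 2 did not run alike across all 3 groups. They correlated at -0.269 between WT and KO, 0.101 between WT and KO+DNMT3A and 0.318 between KO and KO+DNMT3A. The insulin-poor library is replicate 1 in WT but replicate 2 in KO, so these correlations cannot decide whether the replicate numbers pair the samples. With the replicate block the counts of members and of list genes passing were 0 in all 3 comparisons, as they were with the KO numbers exchanged, a pairing added after the data were seen. Of 432 list medians under alternatives, 354 moved by less than the spread between replicates and 78 by more.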
